A study of Bos taurus with 12 samples.

Results

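The miR-23, miR-27 and miR-24 miRNAs of the bovine mammary gland were described in 12 small RNA libraries. The family was chosen with earlier results of these data known. All entries of the deposited table named bta-miR-23, bta-miR-24 or bta-miR-27, with any letter or arm, were then taken by name, with no filter on their measured values. This gave 7 mature miRNAs (bta-miR-23a, bta-miR-23b-3p, bta-miR-24, bta-miR-24-3p, bta-miR-27a-3p, bta-miR-27a-5p and bta-miR-27b, written below without the prefix bta for cattle) of 388 mature miRNAs in all, or 8 of 426 entries, because miR-24-3p was listed at both of its precursors.

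The libraries came from mammary biopsies of 12 healthy, multiparous Chinese Holstein cows without mastitis, with 1 cow per library and 3 cows per group. HP and LP cows had a high and a low milk protein percentage and were sampled in lactation, near its peak. HD and LD cows had a high and a low milk protein percentage and were sampled in the non-lactating period. The sample titles name no treatment or allele, and whether the groups differed in alleles is not known from them. The milk protein percentage was taken from herd records of the previous lactation. Group names, and with them every direction given, are those of the deposited columns. The sample titles do not hold these abbreviations, so columns were matched to groups through the names that the study uses. Which group of a pair is the high one thus rests on these names alone and is uncertain. Each biopsy is whole tissue, and fewer cells of a type cannot be told apart from less RNA per cell.

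MiRNAs are short RNAs that bind sites in messenger RNAs and lower their stability or translation. The miR-23, miR-27 and miR-24 miRNAs are cut from hairpins that lie side by side and are transcribed as 1 precursor, and mammals carry such a cluster at a pair of places in the genome. In the RefSeq annotation of ARS-UCD2.0, a different build from the one the study mapped to, MIR23A, MIR27A and MIR24-2 follow each other within the non-coding gene LOC132345691 next to ZSWIM4. MIR23B, MIR27B and MIR24-1 follow each other within AOPEP, next to FANCC. miR-27 is known for repressing PPARG and with it fat cell differentiation, miR-23 for repressing glutaminase downstream of MYC, and miR-24 for repressing cell cycle genes such as E2F2. The clusters are well expressed in endothelium, and PPARG also acts in milk fat synthesis in the bovine mammary gland.

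Levels are given in TPM, which here means the reads of a miRNA scaled to a common total of counted miRNA reads, with no correction for length. Mature miRNAs are of nearly equal length, and levels of different miRNAs were set side by side as read levels only. How closely the reads of different miRNAs reflect their numbers of molecules was not tested. Reads were estimated from the steps of the rounded values, at between 6026620 (HP1) and 23577192 (HD3) counted reads per library, with medians of 10732359 for the lactation libraries and 21207958 for the non-lactating ones, and 3 reads were worth 0.127 to 0.498 TPM. The 7 miRNAs lay far above that floor, with an estimated 57 reads at least for miR-27a-5p and 917247 at most for miR-27b. These depths cover counting error only. For comparisons between libraries, each library was scaled by its median-of-ratios size factor, and the scaled value is called normalized TPM. The size factors of HD1 and LD1 were both 1.50 whereas those of the other 10 libraries lay between 0.764 and 1.14, so results that rest on these 2 libraries are also given without them. The tissue label was checked with marker miRNAs. All 7 epithelial markers (the miR-200 family, miR-205 and miR-148a) were listed, and their summed level was between 30747 and 233146 TPM. Of 4 skeletal muscle markers, 3 were listed and summed to between 90.2 and 735 TPM, and miR-206 was not among the entries.

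Together the 7 miRNAs made up a median of 4.36% of all mature miRNA reads, between 3.21% in HP1 and 6.52% in LD2. miR-27b alone carried a median of 82.0% of that sum, from 74.8% to 84.4%. bta-miR-27b ranked 6 of 388 with a mean of 28596 ± 5642 TPM (SD, n = 12). The next levels were 2512 ± 384 TPM for miR-27a-3p (rank 42), 1792 ± 823 for miR-24-3p (rank 47), 1283 ± 247 for miR-23a (rank 56) and 1149 ± 231 for miR-23b-3p (rank 62). Far below came miR-27a-5p, the other arm of the miR-27a hairpin, with 12.6 ± 7.07 TPM (rank 226) and miR-24 with 7.82 ± 1.99 TPM (rank 246). The entry miR-24 carries no arm in its name and is listed at the mir-24-1 precursor.

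The order of these levels was partly blurred by the spread between libraries. miR-27b was the highest in each of the 12 libraries, and miR-27a-3p exceeded miR-23a in 12 of 12. miR-24-3p exceeded miR-23a in only 8 of 12 libraries, and miR-23a exceeded miR-23b-3p in 8 of 12, so that these 3 neighbours in the order were not separated. miR-24-3p also exceeded miR-27a-3p in 3 of 12 libraries (HD3, LD2 and LD3). The ranges of miR-27a-5p (4.41 to 28.3 TPM) and miR-24 (5.26 to 11.4 TPM) also overlapped.

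**Figure D1:**
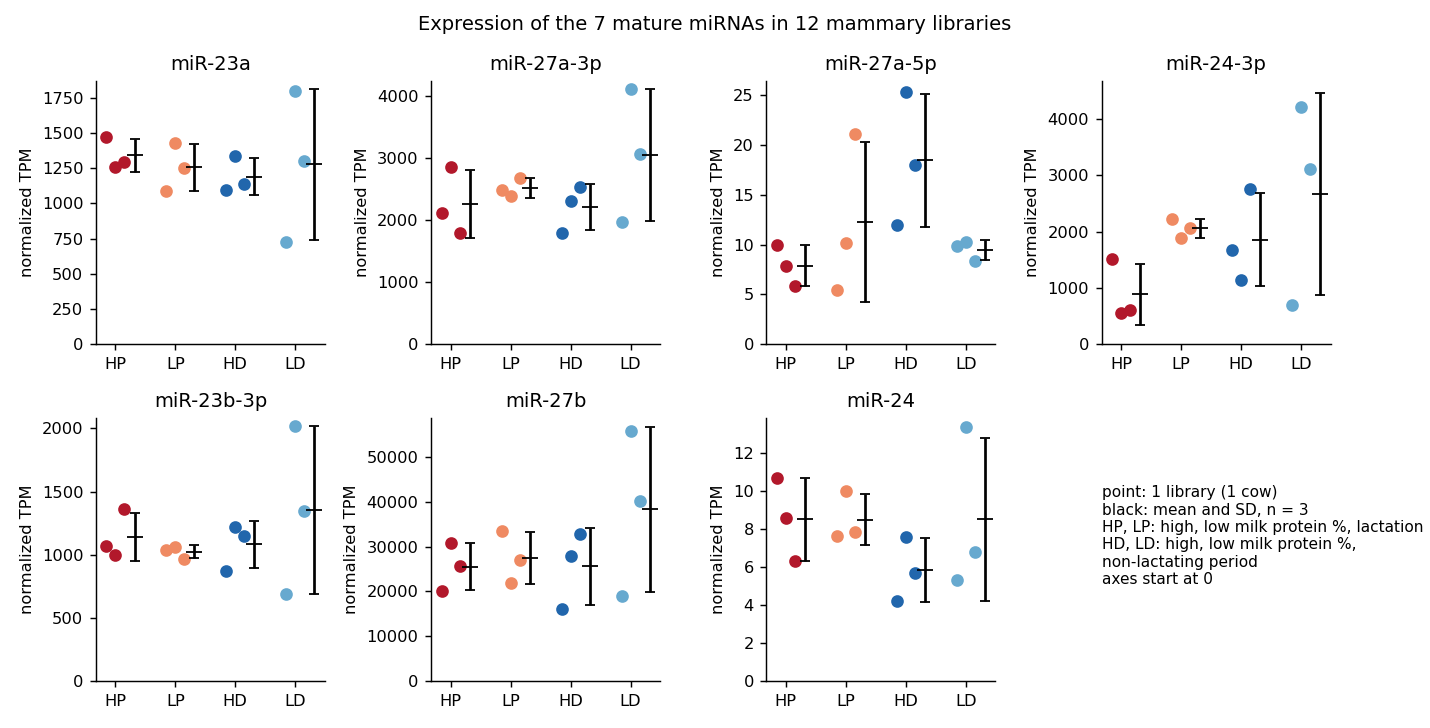
Normalized TPM of each of the 7 miRNAs (vertical axes, all starting at 0) in the groups HP, LP, HD and LD; each point is 1 library and the black marks are the mean and SD of 3 libraries. miR-24-3p lies between 553 and 1516 in HP and between 1879 and 2232 in LP, and the points of LD spread most widely for miR-23a, miR-23b-3p, miR-24-3p and miR-27b.

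miR-27b, the abundant member of the miR-27 family, was at 19131, 30195 and 28199 TPM in HP1 to HP3 and at 26911, 25019 and 25442 TPM in LP1 to LP3. In the non-lactating period it was at 24264, 31119 and 30642 TPM in HD1 to HD3 and at 28514, 42620.5 and 31095 TPM in LD1 to LD3. HP overlapped LP and HD overlapped LD, and LD2 held the highest value. All LD libraries lay above all LP libraries in TPM but not in normalized TPM. There LD1 was at 19008.5, below the LP libraries at 21980.5 to 33435. Its paralog miR-27a-3p was at 2015, 2811 and 1967 TPM in HP, 2002, 2717 and 2521 in LP, 2696, 2570.0 and 2361 in HD, and 2961, 3146 and 2371 in LD, each in the order of the replicate numbers. The groups overlapped here too, and the highest library exceeded the lowest by 1.60-fold. The opposite arm miR-27a-5p varied far more, by 6.41-fold. Its values were 9.46, 7.67 and 6.45 TPM in HP, 4.41, 11.6 and 19.8 in LP, 18.0, 28.3 and 16.8 in HD, and 14.7, 7.85 and 6.46 in LD. All 3 HD libraries lay above the 3 LD libraries, whereas HP and LP overlapped.

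miR-23a and miR-23b-3p, which share their seed, were steady by comparison. miR-23a was at 1398, 1233 and 1422 TPM in HP, 877, 1624 and 1173 in LP, 1640.25, 1493 and 1060.36 in HD, and 1089, 1375 and 1007 in LD. miR-23b-3p was at 1016, 974 and 1494 TPM in HP, 835, 1209.5 and 903 in LP, 1311, 1362 and 1068 in HD, and 1033, 1541 and 1042 in LD. No group of either miRNA stood clear of the others. The highest library exceeded the lowest by 1.87-fold for miR-23a and by 1.84-fold for miR-23b-3p.

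bta-miR-24-3p was the most variable of the abundant members. bta-miR-24-3p was at 1438, 542 and 664 TPM in HP1 to HP3 and at 1796, 2138 and 1928 TPM in LP1 to LP3. In the non-lactating period it was at 2509.6, 1268 and 2568 TPM in HD1 to HD3 and at 1037, 3211 and 2405 TPM in LD1 to LD3. The HP libraries all lay below the LP libraries, whereas HD and LD overlapped, with LD1 below and LD2 above all HD libraries. The highest library exceeded the lowest by 5.93-fold. The SD of miR-24-3p within groups was 0.868 on the log2(normalized TPM + 1) scale, which ranked 26 among the 234 miRNAs with a mean of at least 10 TPM, whose median was 0.422. The SD was 0.526 for miR-27b, 0.544 for miR-27a-5p, 0.430 for miR-23b-3p, 0.36 for miR-23a and 0.345 for miR-27a-3p. The low entry miR-24 did not share this spread. It ranged from 6.94 to 10.1 TPM in HP, from 6.13 to 11.4 in LP, from 5.30 to 8.44 in HD and from 5.26 to 10.2 in LD.

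The values of miR-24-3p at its 2 precursors were almost the same number. In each library the entry at mir-24-1 exceeded that at mir-24-2 by 0.418% to 1.28%. A read of a mature miRNA made from 2 hairpins can be counted at both, so these entries do not separate the output of the 2 clusters. Likewise the study allowed 1 mismatch in mapping, and mature miR-23a and miR-23b, as well as miR-27a and miR-27b, differ by a single base, so that some reads may have been counted at the other paralog.

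Lactation was then compared with the non-lactating period, with 6 libraries on each side. Of the 7 miRNAs, 0 changed with stage in limma at an adjusted p under 0.05, and 0 had an unadjusted p under 0.05. Over all 388 miRNAs the same test called 44.3%, and 50.5% had an unadjusted p under 0.05. The 2 stages did not overlap for 0 of the 7 miRNAs, against 21.9% of all. The log2 fold changes of lactation over the non-lactating period had a median of -0.10 in the 7 miRNAs and of -0.01 in all.

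The intervals show how large a stage difference these libraries still allow. miR-23a had a log2 fold change of 0.12 (SE 0.21, 95% confidence interval -0.34 to 0.58), miR-27a-3p of -0.10 (-0.55 to 0.35), miR-23b-3p of -0.10 (-0.61 to 0.42) and miR-27b of -0.17 (-0.78 to 0.45). The normalized TPM of miR-27b was 26525 ± 5064 over the lactation libraries and 31999.6 ± 14636.5 over the non-lactating ones (SD, n = 6), which spread more widely. The low entries had log2 fold changes of 0.28 (miR-24, -0.26 to 0.82) and -0.47 (miR-27a-5p, -1.12 to 0.19). miR-24-3p had the widest interval, with a log2 fold change of -0.57 (SE 0.42, -1.49 to 0.35, limma adjusted p = 0.297).

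The stage result of miR-24-3p depended on single libraries. Without LD1, which held its lowest non-lactating value, the log2 fold change was -0.96 (limma adjusted p = 0.0212), and miR-24-3p was then lower in lactation. Without LD2, which held its highest value, the log2 fold change was -0.32 (limma adjusted p = 0.565). Without HD1 and LD1 it was -0.98 (limma adjusted p = 0.0291). miR-27b moved the same way without these 2 libraries, to -0.53 with a limma adjusted p of 0.0540, and miR-23a went from 0.12 to -0.09.

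Some markers of cell types moved with stage, in a test that called 22.2% of all 388 miRNAs higher and 22.2% lower in lactation. Of 7 epithelial markers, 6 were higher in lactation, and their summed level was 141468 to 233146 TPM in the 6 lactation libraries and 30747 to 79561 TPM in the 6 others. Both endothelial markers were higher in lactation. The endothelial miR-126-3p was at 10854 to 16628 normalized TPM in the lactation libraries and at 5423 to 8573 in the others, with no overlap. Of the 4 stromal markers 2 were lower in lactation, as were 2 of the 5 leukocyte markers. Their part in the values of the 7 miRNAs was not tested.

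**Figure D2:**
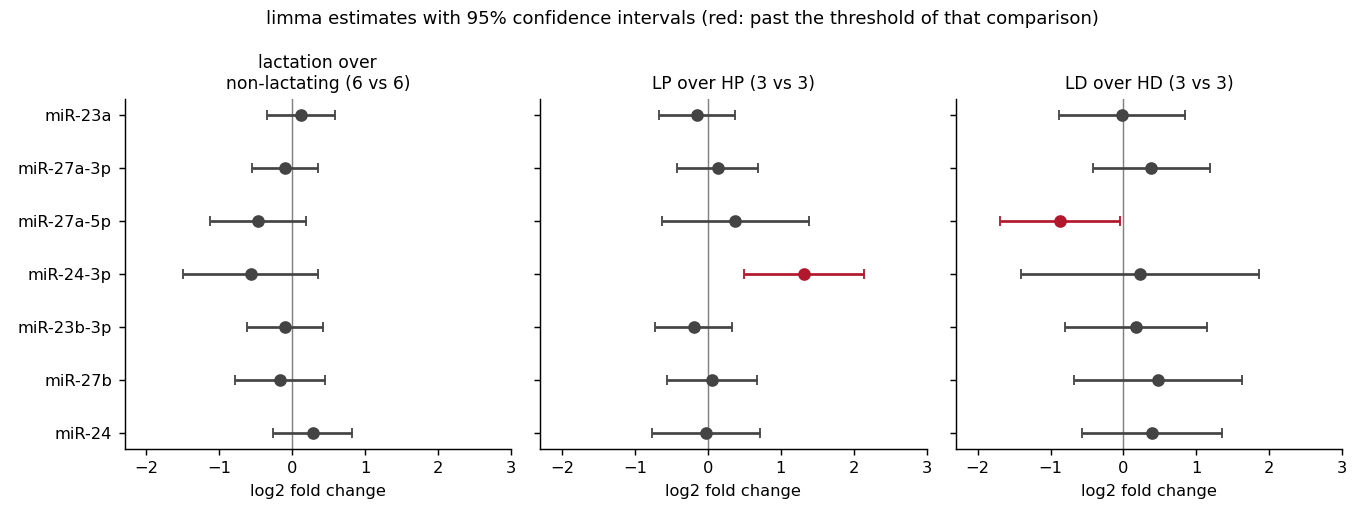
Log2 fold change with its 95% confidence interval from limma (horizontal axes) for each of the 7 miRNAs, in lactation over the non-lactating period (6 against 6 libraries), LP over HP (3 against 3) and LD over HD (3 against 3); red marks the estimates past the threshold of that comparison. All 7 intervals of the stage comparison include 0, and the red points are miR-24-3p in LP over HP (1.31) and miR-27a-5p in LD over HD (-0.87).

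The comparison HP vs LP asked which miRNAs differ with milk protein percentage in lactation. By the column names, whose direction is uncertain, miR-24-3p was higher in LP than in HP. It was the only one of the 7 to pass the threshold. It was at 884 ± 536 normalized TPM in HP and at 1973 ± 149 in LP (SD, n = 3, scaled over the 6 lactation libraries), a ratio of means of 2.23. The log2 fold change of LP over HP was 1.31 (SE 0.37, 95% confidence interval 0.49 to 2.13, limma unadjusted p = 0.00521, adjusted p = 0.203). It therefore passed the cutoffs of the study, an unadjusted p under 0.05 and a log2 fold change beyond 0.8 in either direction. A miRNA past both is called DE here. The cutoffs were applied to limma on normalized TPM, whereas the study used DESeq2, so the calls need not be those of the study. By these cutoffs 1 of the 7 miRNAs was DE, against 10.1% of all 388. After Benjamini-Hochberg adjustment 0 of the 7 passed, against 0.258% of all. HP and LP were without overlap for 1 of the 7, against 19.8% of all.

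The difference in miR-24-3p was DE without any one of the 6 libraries, with log2 fold changes between 1.05 and 1.77. HP1, at 1438 TPM, was nearer to the lowest LP library than to HP2 and HP3. Without HP1 the log2 fold change was 1.77 and the limma adjusted p 0.00358, whereas without each of the other libraries the adjusted p stayed above 0.05, at up to 0.512. Both precursor entries gave the same result, with log2 fold changes of 1.32 and 1.33.

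The other 6 miRNAs were not DE in HP vs LP. Their log2 fold changes were 0.13 for miR-27a-3p (95% confidence interval -0.42 to 0.69), 0.06 for miR-27b (-0.55 to 0.67), -0.15 for miR-23a (-0.67 to 0.37) and -0.20 for miR-23b-3p (-0.73 to 0.34). These 4 neighbours of miR-24-3p thus had intervals on both sides of 0. The interval of miR-24-3p overlapped those of miR-27a-3p and miR-27b and lay above those of miR-23a and miR-23b-3p. miR-27a-5p (0.38, -0.63 to 1.38) and miR-24 (-0.03, -0.77 to 0.71) had wider intervals.

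Some cell markers also moved between HP and LP, where 10.1% of all 388 miRNAs were DE and 5.93% were DE and higher in LP. Of 3 erythroid markers, 2 were DE and higher in LP (miR-451 and miR-144), and the erythroid sum was 781 to 1378 TPM in HP and 1126 to 2041 TPM in LP. miR-143, a miRNA of smooth muscle, was DE and higher in LP with a log2 fold change of 0.85 (SE 0.27). The smooth muscle sum, which is nearly all miR-143, was at 58589 to 84391 TPM in HP and 112785 to 145006 TPM in LP without overlap. The other smooth muscle marker, miR-145, had a log2 fold change of -0.61 (SE 0.94) and was not DE. Of 5 leukocyte markers, miR-150 was DE and lower in LP (log2 fold change -1.69, SE 0.61). The other leukocyte markers were not DE, with log2 fold changes of 0.14 (miR-142-3p), -0.09 (miR-142-5p), 0.41 (miR-223) and 0.28 (miR-155). Of the epithelial, endothelial, stromal and skeletal muscle markers 0 were DE. The part of these cell types in the difference of miR-24-3p was not tested.

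HD vs LD asked the same question in the non-lactating period, and here miR-27a-5p was the only one of the 7 to be DE. It was at 19.5 ± 6.52 normalized TPM in HD and at 9.84 ± 1.14 in LD (SD, n = 3, scaled over the 6 non-lactating libraries). The log2 fold change of LD over HD was -0.87 (SE 0.35, 95% confidence interval -1.70 to -0.05, limma unadjusted p = 0.0404, adjusted p = 0.935). All 3 HD libraries were above the LD libraries. By the same cutoffs on the limma values 1 of the 7 miRNAs was DE, against 3.35% of all 388. DE and lower in LD were 1.29% of all 388. HD and LD were without overlap for 1 of the 7, against 10.3% of all. After adjustment 0 of the 7 passed, and 0% of all. On the log2 scale with 1 added, the change of a miRNA at this level is understated.

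This call was fragile. It was lost without HD2, HD3, LD1, LD2 or LD3, where the log2 fold change was between -0.95 (without LD2, limma unadjusted p = 0.0607) and -0.63 (without HD2, limma unadjusted p = 0.156). It held without HD1 (-1.12, limma unadjusted p = 0.0266) and without HD1 and LD1 together (-1.13, limma unadjusted p = 0.0307). On TPM without size factors the limma unadjusted p was 0.0646, and with all 12 libraries in 1 fit it was 0.0729. With a pseudocount of 5 the log2 fold change was -0.69, inside the limit of 0.8.

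The abundant arm of the same hairpin, miR-27a-3p, had a log2 fold change of 0.38 (95% confidence interval -0.42 to 1.18). miR-27b had 0.47 (-0.68 to 1.63), miR-24 had 0.39 (-0.57 to 1.35), miR-23b-3p had 0.17 (-0.81 to 1.15) and miR-23a had -0.02 (-0.89 to 0.84). In LD, LD1 was the lowest and LD2 the highest library in normalized TPM for each of these 5 miRNAs and for miR-24-3p. For miR-24-3p the log2 fold change of LD over HD was 0.23 (SE 0.70, -1.40 to 1.86). Without LD1, its lowest library in this stage, it was 1.05 (limma unadjusted p = 0.0482, adjusted p = 0.413), which made it DE, and without LD2 it was -0.29. Without both HD1 and LD1 it was 1.02 (limma unadjusted p = 0.0992). The log2 fold change of miR-27b was 0.94 without LD1 (limma unadjusted p = 0.0522), 0.12 without LD2 and 0.63 without HD1 and LD1. That of miR-27a-3p was 0.69 (limma unadjusted p = 0.0418), 0.12 and 0.54 in the same order. Neither was DE in these fits.

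Among the markers, 2 of 5 leukocyte miRNAs (miR-142-3p and miR-142-5p) and the endothelial miR-126-5p were DE and higher in LD, against 2.06% of all 388. The far more abundant endothelial miR-126-3p was not DE (log2 fold change 0.30, SE 0.27). The other leukocyte markers were not DE, with log2 fold changes of 0.02 (miR-150), 0.03 (miR-223) and 0.45 (miR-155). The leukocyte sum, which is mostly miR-142-5p, was 8262 to 10428 TPM in HD and 10543 to 20486 TPM in LD without overlap. Of the 3 erythroid markers 0 were DE, but miR-451 was at 3414 normalized TPM in LD2 against 116 in LD1 and 157 in LD3. The part of these cells in the difference of miR-27a-5p was not tested.

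Whether the phenotype difference depended on stage was tested directly. Of the 7 miRNAs, 0 passed in limma at an adjusted p under 0.05 and 0 had an unadjusted p under 0.05. Over all 388 miRNAs these shares were 0% and 5.15%. The difference between the log2 fold changes (LP over HP minus LD over HD) was 1.26 for miR-27a-5p (SE 0.60, limma unadjusted p = 0.0584) and 1.1 for miR-24-3p (SE 0.85, limma unadjusted p = 0.218). The calls of miR-24-3p in one stage and of miR-27a-5p in the other were thus not shown to differ between the stages.

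Ratios of a pair of miRNAs within a library do not depend on how libraries are scaled, and 8 such ratios were compared between stages by a two-sided exact permutation test on log2 ratios. After adjustment over the 8 ratios none differed. The smallest p was 0.0909 (adjusted p = 0.381), for miR-24-3p over the entry miR-24. With 6 against 6 libraries this test can go down to 0.00216.

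The ratios between paralogs were the narrowest. miR-27a-3p was at 0.0697 to 0.111 of miR-27b in the 12 libraries, a 1.59-fold range. miR-23a was at 0.892 to 1.38 of miR-23b-3p, a 1.54-fold range, where the median of the lactation libraries was 1.28 and that of the others 1.02 (exact permutation p = 0.0952, adjusted p = 0.381). These ranges were not far below the 1.74-fold range of miR-27b to miR-23b-3p, and miR-27a-3p alone ranged 1.60-fold. Reads counted at the other paralog may narrow such ratios, which was not tested. miR-27b exceeded miR-27a-3p in each of the 12 libraries, whereas miR-23a exceeded miR-23b-3p in 8 of 12, so the miR-23 paralogs were not separated. Within the cluster at AOPEP, miR-27b was at 18.5 to 32.2 times miR-23b-3p. Within the other cluster, miR-27a-3p was at only 1.38 to 2.72 times miR-23a.

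Ratios that involve miR-24-3p or miR-27a-5p were wider. miR-24-3p was at 1.03, 0.439 and 0.467 of miR-23a in HP and at 2.05, 1.32 and 1.64 in LP. The means were 0.645 ± 0.332 in HP and 1.67 ± 0.367 in LP (SD, n = 3), and the libraries did not overlap (exact permutation p = 0.1). Against miR-23b-3p the means were 0.806 ± 0.531 in HP and 2.02 ± 0.216 in LP, again without overlap (exact permutation p = 0.1). The ratio to the low entry miR-24 was 101 ± 39.0 in HP and 248 ± 54.4 in LP, also without overlap (exact permutation p = 0.1). HD and LD overlapped in all 3 ratios, at 1.60 ± 0.789 and 1.89 ± 0.814 for the ratio to miR-23a. The ratio of miR-27a-3p to miR-27a-5p, the 2 arms of 1 hairpin, was 127 ± 31.6 in HD and 323 ± 107 in LD without overlap (exact permutation p = 0.1), and it was 295 ± 77.2 in HP and 272 ± 166 in LP. miR-27a-3p to miR-23a was also without overlap in the non-lactating period, at 1.86 ± 0.317 in HD and 2.45 ± 0.232 in LD (exact permutation p = 0.1). With 3 against 3 libraries 0.1 is the smallest p that this test can give, so none of these differences could pass.

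**Figure D3:**
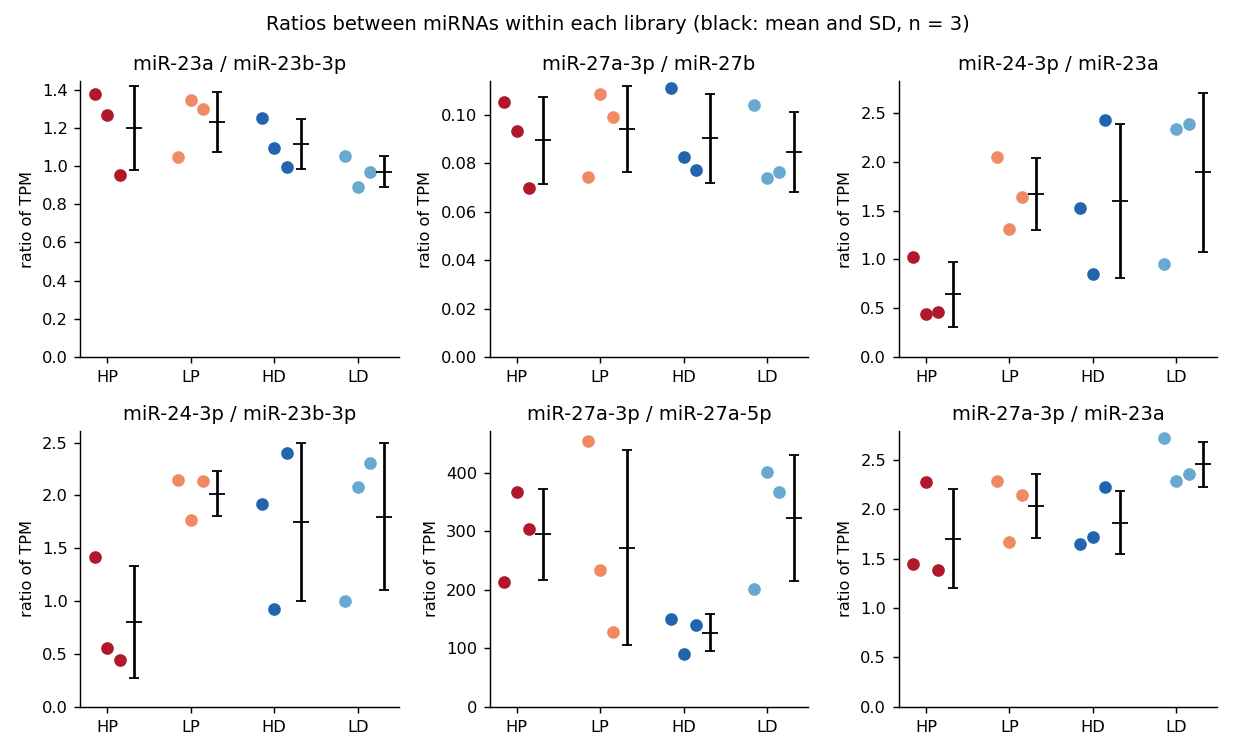
Ratios of the TPM of 2 miRNAs within each library (vertical axes, all starting at 0) in the groups HP, LP, HD and LD; each point is 1 library and the black marks are the mean and SD of 3 libraries. miR-24-3p over miR-23a and over miR-23b-3p is lower in all HP libraries than in all LP libraries, and miR-27a-3p over miR-27a-5p is lower in all HD libraries (90.9 to 150) than in all LD libraries (201 to 401).

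How far the members varied together between cows was described by Pearson's r of log2(normalized TPM + 1) over the 12 libraries after the mean of each stage was subtracted. The 12 points share their libraries, their depths and their size factors, and these values are a description. Among the members the paralogs were the most alike, with r = 0.88 for miR-27a-3p and miR-27b and r = 0.88 for miR-23a and miR-23b-3p. Each was the highest value among 233 partners of the first named. It was not the highest for the second named, since miR-27b was closer to miR-10a (0.91) and miR-23b-3p to miR-10174-3p (0.97). Reads counted at the other paralog may add to the likeness of paralogs, which was not tested. Neighbours within a cluster were at 0.79 (miR-23b-3p and miR-27b) and 0.59 (miR-23a and miR-27a-3p). The pairs of a miR-23 with the miR-27 of the other cluster were at 0.63 (miR-23b-3p and miR-27a-3p) and 0.56 (miR-23a and miR-27b), so pairs within and between clusters were not in a clear order. miR-24-3p, which both clusters encode, reached 0.48 to 0.59 with the other 4. Over all pairs of the 234 miRNAs with at least 10 TPM the median was 0.003 and the 90th percentile 0.57.

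Much of this likeness went with the size factors. On TPM without them, r was 0.36 for miR-27a-3p and miR-27b, 0.27 for miR-23b-3p and miR-27b and -0.10 to -0.03 for miR-24-3p with miR-23a, miR-27a-3p and miR-27b, while it was 0.78 for miR-23a and miR-23b-3p. Over the sets with 1 library removed at a time, the lowest r was 0.80 for miR-27a-3p and miR-27b (without LD2), 0.78 for miR-23a and miR-23b-3p (without LD1) and 0.19 for miR-24-3p with miR-23a (without LD1).

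**Figure D4:**
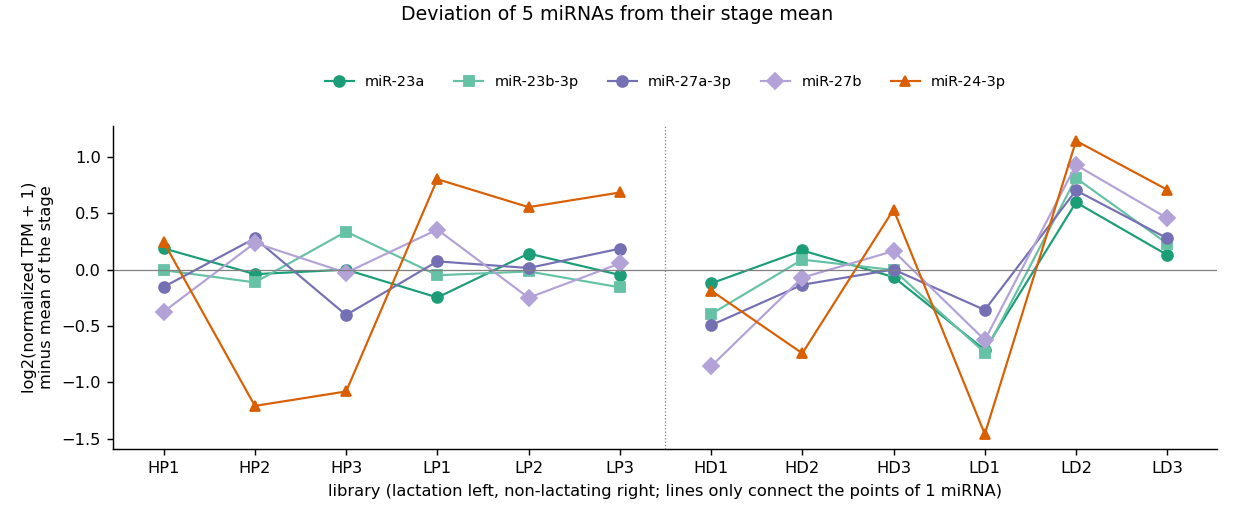
Deviation of log2(normalized TPM + 1) from the mean of the stage (vertical axis) for 5 miRNAs in the 12 libraries (horizontal axis, lactation on the left and non-lactating on the right); lines connect the points of 1 miRNA and carry no order. All 5 lie below their stage mean in LD1 and above it in LD2 and LD3, and miR-24-3p alone lies far below it in HP2 and HP3.

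Outside the family, the miRNAs with the pattern most like that of miR-24-3p were miR-152 (r = 0.97), miR-26b (0.97) and miR-16a (0.95), each closer to it than any member of its own clusters. miR-152 was at 509, 250.1 and 197 normalized TPM in HP, 608, 509 and 621 in LP, 358, 225 and 605 in HD, and 178, 799 and 486 in LD. Like miR-24-3p, it was low in HP2, HP3, HD2 and LD1. miR-26b was lowest in the same 4 libraries, at 4759 to 5200 against 6972 to 12082 in the other 8, and so was miR-16a, at 877 to 1534 against 2500.5 to 4007. In HP vs LP miR-152 (log2 fold change 0.93, SE 0.34) and miR-16a (1.14, SE 0.42) were DE and higher in LP, as were 5.93% of all 388. miR-26b had a log2 fold change of 0.76 (SE 0.27), under the limit of 0.8. These miRNAs were picked by likeness over the same HP and LP libraries, so their shared direction is not a separate result.

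The patterns most like those of the other abundant members were different ones. For miR-27b they were those of miR-10a (0.91), miR-10b (0.90) and miR-192 (0.90). For miR-23b-3p they were those of miR-10174-3p (0.97), miR-193b (0.85) and miR-10a (0.79), and for miR-23a those of miR-195 (0.77), miR-10174-3p (0.77) and miR-2284w (0.74). For miR-27a-3p they were those of miR-143 (0.87), the smooth muscle miRNA, miR-140 (0.83) and miR-486 (0.81).

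Because miR-27 is known for its part in lipid metabolism, a list of 10 other miRNAs known for lipid metabolism was set beside it, of which 9 were listed and miR-122 was not among the entries. Of these 9, 5 were higher and 1 was lower in lactation by limma at an adjusted p under 0.05, with a median log2 fold change of 0.79 against -0.01 over all miRNAs. Over all 388 miRNAs, 22.2% were higher and 22.2% lower. miR-33b and miR-33a, which lie within the SREBP genes and repress cholesterol export, were higher by log2 fold changes of 2.87 (SE 0.33) and 1.97 (SE 0.32). miR-148a, which is also an epithelial marker here, was higher by 2.79 (SE 0.26), and miR-103 and miR-107 by 1.06 (SE 0.17) and 0.79 (SE 0.21). miR-130b, which represses PPARG as miR-27 does, was lower by a log2 fold change of -1.35 (SE 0.28). In the same test miR-27b and miR-27a-3p had values of -0.17 and -0.10, and miR-27a-5p, the opposite arm, had -0.47. Of these 3, 0 passed.

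In HP vs LP 1 of these 9 miRNAs was DE and higher in LP (miR-152), against 5.93% of all 388. In HD vs LD 2 were DE and higher in LD, against 2.06% of all, namely miR-33b (log2 fold change 1.46, SE 0.36) and miR-33a (0.80, SE 0.28). miR-27b and miR-27a-3p were not DE in either comparison.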

How the data were processed

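Small RNA libraries of 12 cows, 3 each in HP, LP, HD and LD, were grouped by their labels, and each replicate was a different cow. The authors trimmed reads with Cutadapt 2.8 and Trimmomatic 0.36, kept 18 to 30 nt, mapped them to ARS-UCD 1.2 with Bowtie 1.1.1 allowing 1 mismatch, and counted miRNAs of miRBase 22.0 with miRDeep2. The authors deposited rounded RPM values under the name TPM, for entries over 0.5 TPM in at least 2 libraries. Columns left unused numbered 0. Rounded values were whole multiples of 1 step per library within 0.0051 TPM in at least 99.8% of entries, from which the reads were estimated.

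A mature miRNA listed at several precursors was represented by the entry with the highest mean. The scale was log2 of TPM over a median-of-ratios size factor (from the libraries in the fit) plus 1. limma 3.58.1 in R 4.3.3 (empirical Bayes with trend) was fitted over all 388 miRNAs, on the 6 libraries of a stage for each phenotype comparison and on 12 for stage and its interaction. It was tested on simulated data. Stage calls used a Benjamini-Hochberg adjusted p under 0.05, and phenotype calls an unadjusted p under 0.05 with a log2 fold change beyond 0.8 in either direction. Exact permutation tests used Python 3.11.15, numpy 2.4.6 and pandas 2.3.3, and plots matplotlib 3.10.9.

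The text names all 7 miRNAs of the family, for the 5 abundant ones the 3 most alike outside it, and marker and lipid miRNAs from fixed lists. Members and lists were chosen with earlier results of these data known. Alternatives left out the size factors, the trend, low miRNAs (a mean under 10 TPM), or 1 library at a time, used pseudocounts of 0.1 and 5, kept every precursor, blocked on replicate number, fitted all 12 libraries together for each phenotype comparison and, chosen after seeing the data, left out HD1 and LD1.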

Additional observations from a re-analysis of the deposited data

Results flagged for a closer look

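The 7 abundances and the 8 ratios were each examined within the 6 libraries of a stage, and in 3 of these 30 sets of 6, all of them abundances, a value stood apart by Dixon's criterion, where about 1 in 20 sets is found by chance, or 1.5 of the 30. miR-23b-3p was at 1358 normalized TPM in HP3, and at 964 to 1071 in the other 5 lactation libraries. miR-27a-5p was at 21.1 normalized TPM in LP3, and at 5.48 to 10.2 in the other 5 lactation libraries. The entry miR-24 was at 13.4 normalized TPM in LD2, and at 4.23 to 7.57 in the other 5 non-lactating libraries.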

How the results depend on the processing

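Of 479 values of single miRNAs under alternatives, 443 kept their direction and call, 25 changed direction, 8 lost a call and 3 gained one. In HP vs LP 1 of 7 was DE under all 8 alternatives and without each library. In HD vs LD the number was 0 on TPM without size factors, with a pseudocount of 5 and with all 12 libraries in 1 fit, and 0 to 1 without each library, and DE miRNAs in all fell from 13 to 3, 7 and 11. For stage it was 1 without HD1 and LD1, and 0 to 1 without each library (miR-24-3p in both cases). Without size factors the median of all miRNAs moved by -0.19 in HD vs LD and 0.15 in the interaction, DE miRNAs in HD vs LD went from 8 higher and 5 lower to 0 and 3, and stage calls from 86 and 86 to 56 and 82. HD vs LD then gave -0.067 for miR-23b-3p and -0.0096 for miR-24-3p, and the interaction 0.077 for miR-23a. With 12 libraries in 1 fit miR-24 in HP vs LP was 0.012 and miR-23a in HD vs LD 0.011. Without HD1 and LD1 miR-23a was -0.087 for stage and 0.30 in HD vs LD. Without size factors r was -0.032 (miR-23a, miR-24-3p), -0.19 (miR-23a, miR-27b), -0.11 (miR-23b-3p, miR-24-3p), 0.10 (miR-23b-3p, miR-27a-3p), 0.27 (miR-23b-3p, miR-27b), -0.042 (miR-24-3p, miR-27a-3p), -0.10 (miR-24-3p, miR-27b) and 0.36 (miR-27a-3p, miR-27b). Without each library, stage ranged from -0.053 to 0.27 for miR-23a, -0.30 to 0.084 for miR-23b-3p, -0.23 to 0.029 for miR-27a-3p and -0.38 to 0.0057 for miR-27b. HP vs LP ranged from -0.21 to 0.13 for miR-24, -0.019 to 0.32 for miR-27a-3p, -0.058 to 0.81 for miR-27a-5p and -0.10 to 0.21 for miR-27b. HD vs LD ranged from -0.34 to 0.37 for miR-23a, -0.20 to 0.62 for miR-23b-3p and -0.29 to 1.05 for miR-24-3p. The interaction ranged from -0.48 to 0.16 for miR-23a, and the log2 ratio of miR-27b to miR-23b-3p by stage from -0.16 to 0.0040. Where a call or direction was lost, the cause was not tested. Same-numbered libraries correlated at -0.202, -0.256 and 0.0093 (HP, LP) and 0.548, -0.113 and 0.505 (HD, LD), and 4 of 12 correlated best with their own number. Each library was a different cow, so the numbers do not pair cows. What same-numbered HD and LD libraries have in common was not tested. With the replicate block miR-24-3p in HP vs LP had a log2 fold change of 1.31 (limma unadjusted p = 0.00683), and members called stayed at 0 (stage), 1 (HP vs LP), 1 (HD vs LD) and 0 (interaction). edgeR and DESeq2 were not run, since the reads are estimates from rounded values with too few low values per library to check them for a count test. miR-24 gave no value at a mean of at least 10 TPM.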
